A study of Mus musculus with 60 samples.

Results

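The neurexins and neuroligins described here are Nrxn2, Nrxn3, Nlgn1, Nlgn2 and Nlgn3, chosen from the deposited gene table by a symbol of Nrxn or Nlgn followed by a number. They are 5 of 9066 genes, and they own 82 of the 114691 exon rows. Neurexins are presynaptic membrane proteins that bind neuroligins and other partners across the synaptic cleft, and neuroligins are postsynaptic adhesion proteins that carry an extracellular domain related to acetylcholinesterase. Each neurexin gene has a long alpha form and a shorter beta form that starts at an internal promoter, and both are spliced at several numbered sites; the best known of them, splice site 4, is a single alternative exon that decides which partners are bound. Neuroligins are spliced at fewer sites, and Nlgn2 is known from inhibitory synapses.

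The data are polyA RNA-Seq of hand-dissected striatum from 60 HS-CC mice, a heterogeneous stock bred from the 8 inbred strains of the collaborative cross, with 1 library per mouse. The lines had been selectively bred for their response to haloperidol, a dopamine receptor blocker, and each mouse carries a catalepsy label: 30 were Non-Responder (13 females, 17 males) and 30 were Responder (15 females, 15 males). The mice are outbred, no gene was engineered, and the labels used here give no age. The labels allow asking whether these adhesion genes, or the exons they use, differ between mice of the opposite haloperidol phenotypes or between the sexes.

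Whole reads could be recovered from the scaled gene values, and they came to between 4913122 and 21872744 per mouse (median 14520042). The totals formed a shallower range of 17 mice (up to 9507322 reads) and a deeper range of 43 mice (from 12051239), with 9 Non-Responder and 8 Responder mice in the shallower range. The shallower mice were mouse 26 and every mouse numbered 41 to 56. A library's 3' bias was measured as the median log2 rise of exon values from the 5' to the 3' end of 5203 other genes, relative to the mean over mice. It was strongest in mice 63, 5, 4 and 62 (1.48, 0.91, 0.68 and 0.48), 1 in each combination of sex and phenotype, and its median was -0.25 in the shallower and 0.01 in the deeper range. All 12 markers of medium spiny neurons (Drd2, Ppp1r1b and Adora2a among them) were above 0, and their summed value was 85171 to 182657 over the mice.

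The exon rows carry a start position in mouse build m37 and no end. Of the 82 rows, 78 could be tied to exons of the GENCODE M21 annotation (build GRCm38) by the constant spacing of their starts, which gave them a length and a coding status; lengths are therefore those of M21 and may differ from the gene models used for counting. Rows are numbered here from the 5' end of each gene. Nrxn2 (ENSMUSG00000033768) lies on chromosome 19 (6418731 to 6544169 in GRCm38, plus strand) and has 26 rows, and Nrxn3 (ENSMUSG00000066392) on chromosome 12 (88722876 to 90334935, plus strand) has 32. Nlgn1 (ENSMUSG00000063887) on chromosome 3 (25426215 to 26332460, minus strand) has 6, Nlgn2 (ENSMUSG00000051790) on chromosome 11 (69823122 to 69837784, minus strand) has 8, and Nlgn3 (ENSMUSG00000031302) on chromosome X (101299168 to 101325963, plus strand) has 10.

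The splice site 4 exon is coding and 90 bases long in both Nrxn2 (row 24) and Nrxn3 (row 28), and the Nrxn3 sequence is shown because the comparison of this exon follows. It was cut from the GENCODE M21 transcripts at GRCm38 12:90199147-90199236 (plus strand), in lower case throughout as no stretch is singled out.
Nrxn3 row 28: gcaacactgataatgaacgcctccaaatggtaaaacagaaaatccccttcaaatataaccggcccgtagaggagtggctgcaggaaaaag

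A second set of exons is shown because the table gave them almost no value. Neuroligins carry alternative exons of 60 bases near the 5' end of the coding region, 1 in Nlgn1 (GRCm38 3:25920178-25920237, minus strand) and 2 in Nlgn3 (X:101303072-101303131 and X:101307075-101307134, plus strand), and capitals mark bases shared by all 3.
Nlgn1 row 2: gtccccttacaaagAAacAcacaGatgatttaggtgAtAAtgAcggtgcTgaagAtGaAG
Nlgn3 row 4: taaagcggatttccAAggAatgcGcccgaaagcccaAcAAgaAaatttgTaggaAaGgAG
Nlgn3 row 5: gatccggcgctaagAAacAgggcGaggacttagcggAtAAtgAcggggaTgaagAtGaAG
The Nlgn1 exon shared 43 of 60 bases with Nlgn3 row 5 and 16 with Nlgn3 row 4. Nrxn2 and Nrxn3 each hold a 27-base coding exon between an exon of 204 and an exon of 120 bases (19:6488784-6488810 and 12:89354453-89354479, plus strand), which shared 13 bases.
Nrxn2 row 15: ACTGccTgcGcgTcggCTGcgcacCCA
Nrxn3 row 18: ACTGtaTcaGgaTaaaCTGtaactCCA

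These short exons were not measurable with the deposited exon values. Of the 11 member rows tied to exons of at most 70 bases, 7 were listed at 0 in all 60 mice and the other 4 averaged at most 2.98. Nlgn1 row 2 and both 27-base exons were at 0 in every mouse, Nlgn3 row 5 averaged 2.98 ± 2.80 (SD, n = 60) with 6 mice at 0, and Nlgn3 row 4 averaged 1.12 ± 1.72 with 28 mice at 0. The same held across the whole table, where 61.5% to 66.8% of the rows in each length class up to 70 bases were at 0 in all mice and the median row had none of its gene's per-base level. The median reached 7.24% between 70 and 80 bases, 27.6% between 80 and 90, 42.8% between 90 and 100, and 100% between 150 and 200. An exon listed at 0 here is therefore no evidence that the exon was skipped. Read length is not given in the sources used here, and its part in this pattern was not tested.

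**Figure D1:**
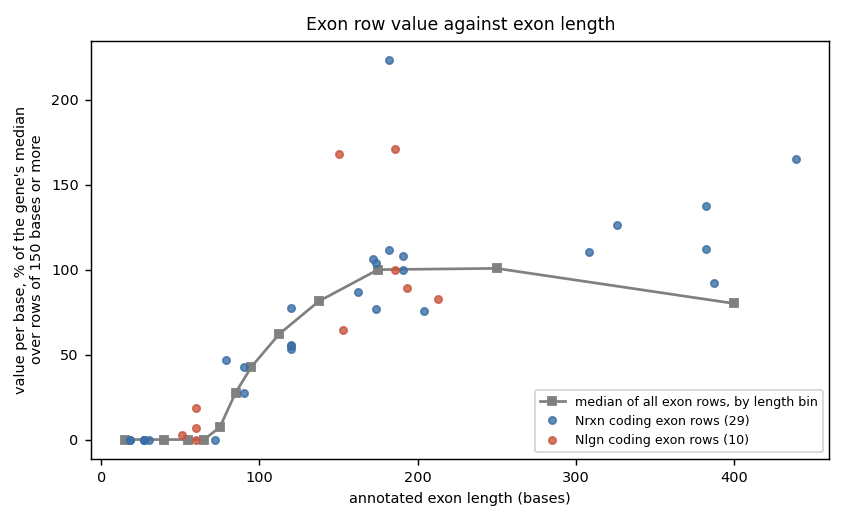
Value per base of each coding exon row of 1 annotated length (y, percent of its gene's median over rows of 150 bases or more) against exon length in bases (x), for neurexins (blue), neuroligins (red) and the median of all exon rows by length class (grey). Rows up to 70 bases sit between 0% and 18.6% (Nlgn3 row 5), and the splice site 4 exons at 90 bases sit at 27.4% (Nrxn3) and 42.7% (Nrxn2).

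All 5 genes were among the more highly read genes, with mean values above those of 81.8% to 95.4% of all genes of the gene table. The gene value (the deposited count after upper quartile scaling) ranged from 1230 to 4631 for Nrxn2 (median 3366) and from 2836 to 8611 for Nrxn3 (median 5928). It ranged from 1356 to 2806 for Nlgn1 (median 2088), from 4376 to 7920 for Nlgn2 (median 5995) and from 1595 to 4268 for Nlgn3 (median 2777). Behind these values stood at least 687 recovered reads per gene and mouse, so that counting error was small beside the spread between mice. Gene values are not per length, and the order of the genes was therefore taken from inner coding rows of at least 150 bases, per 100 bases. The median was taken over 3 such rows of Nlgn2, 7 of Nrxn2, 10 of Nrxn3, 2 of Nlgn3 and 3 of Nlgn1. Rows of 1 gene can differ, so the order holds for these few rows. On this scale Nlgn2, the neuroligin of inhibitory synapses, was highest (112 ± 22.1, SD, n = 60) and above Nrxn2 (73.2 ± 16.04) in 60 of 60 mice. Nrxn3 (55.5 ± 17.6) followed below Nrxn2 in 56 mice, then Nlgn3 (45.3 ± 13.4) below Nrxn3 in 55 mice, and Nlgn1 was lowest (33.8 ± 7.68), below Nlgn3 in 55 mice.

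Nrxn2, Nrxn3 and Nlgn3 were more variable between mice than the typical gene. The coefficient of variation of the gene value was 25.01% for Nrxn3, 22.9% for Nlgn3 and 21.2% for Nrxn2, whereas Nlgn2 (14.3%) and Nlgn1 (12.4%) were below the median of 16.3% over the genes averaging at least 10. The lowest Nrxn2, Nrxn3, Nlgn1 and Nlgn3 values all came from mouse 63, at 36.5%, 47.8%, 65.0% and 57.4% of the respective medians. The 4 mice of strongest 3' bias were also the 4 lowest for both Nrxn2 and Nrxn3. For Nlgn2 these mice were divided: mouse 63 was second lowest at 76.5% of the median and mouse 62 stood at 82.7%, while mice 5 and 4 stood at 100.1% and 99.9%.

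**Figure D2:**
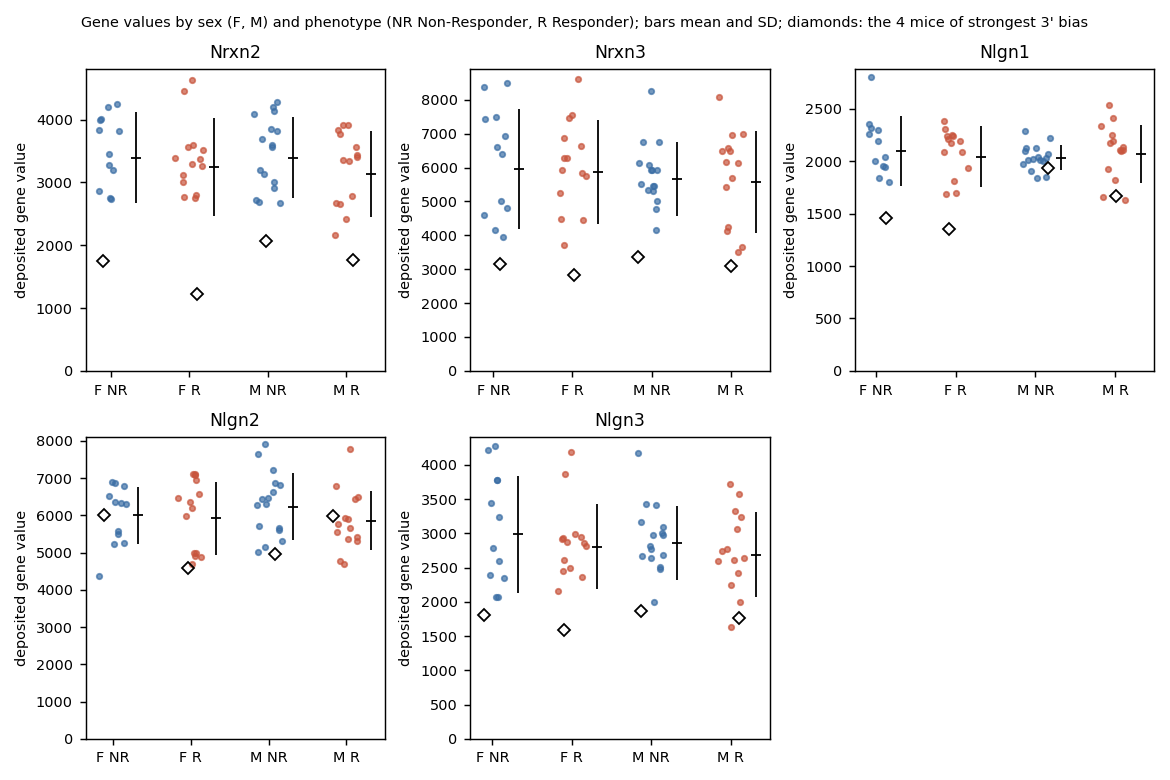
Deposited gene value of each of the 5 genes (y) in each mouse, by sex and catalepsy phenotype (x: 13, 15, 17 and 15 mice), with the mean and SD of each group beside it. Groups overlap throughout, and the 4 mice of strongest 3' bias (diamonds), 1 in each group, are the lowest for Nrxn2 and Nrxn3.

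No difference in level with catalepsy phenotype was called for Nrxn2, Nrxn3 or the neuroligins by the test across all genes. Nrxn2 ranged from 1750 to 4273 (median 3507) in Non-Responder and from 1230 to 4631 (median 3350) in Responder mice, with means of 3393 ± 670 and 3193 ± 720 (SD, n = 30 each). The means were 5789 ± 1403 and 5719 ± 1498 for Nrxn3. Among neuroligins they were 2062 ± 233 and 2059 ± 279 for Nlgn1, 6133 ± 838 and 5892 ± 875 for Nlgn2, and 2913 ± 682 and 2746 ± 615 for Nlgn3. In each case the ranges of the phenotypes overlapped. None of the 5 genes passed an adjusted p of 0.05 with limma on log2(value + 1) with sex in the model, and none was below 0.05 unadjusted, while 9 of 8535 genes were called (0.105%). The Responder minus Non-Responder differences, on the log2(value + 1) scale, were -0.10 for Nrxn2 (95% interval -0.28 to 0.08), -0.09 for Nlgn3 (-0.26 to 0.08), -0.06 for Nlgn2 (-0.17 to 0.05), -0.03 for Nrxn3 (-0.23 to 0.17) and -0.01 for Nlgn1 (-0.11 to 0.09). All had an adjusted p of 0.999. As percentages of the Non-Responder level these intervals were -17.6% to 5.51% for Nrxn2 and -7.03% to 6.45% for Nlgn1. All 5 differences lay below 0, but the direction was not stable: with 3' bias and depth in the model 2 of the 5 lay above 0. edgeR and DESeq2 on the recovered reads also called 0 of 5, with 0 below an unadjusted p of 0.05.

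No difference between the sexes was called in these genes by the same model either. Male minus female differences ran from -0.06 (Nrxn3, 95% interval -0.25 to 0.14) to 0.02 (Nlgn2, -0.09 to 0.13) on the log2 scale, 0 of 5 were called by limma, and 3 of 8535 genes were (0.0351%). Nlgn3, the X-linked member, was 2886 ± 729 in 28 females and 2780 ± 578 in 32 males. The interaction of phenotype and sex gave 0 calls among the 5 genes and 0 of 8535 over the table (0%, with 48 below an unadjusted p of 0.05 in limma), and its intervals were wide, -0.44 to 0.36 for Nrxn3.

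The 3'-most row held a large part of the reads in 4 of the 5 genes. It took 69.5% ± 3.99 (SD, n = 60) of the exon sum of Nlgn2, 62.4% ± 4.49 of Nlgn3, 61.1% ± 5.001 of Nlgn1 and 47.7% ± 9.46 of Nrxn3. Last rows are also long, and per 100 bases Nlgn2 row 8 stood at 141 and Nlgn1 row 6 at 47.3, while Nlgn3 row 10, of 6545 bases, stood at 26.7, below the 45.7 of its inner row 8. Row 32 of Nrxn3, annotated without coding sequence, averaged 2648 while the row before it, of 706 bases, averaged 97.9. The 2 coding rows of Nrxn3 with the largest values were row 3, near the alpha start, at 818 ± 367 and row 15 at 385 ± 135. Nrxn2 had no 3' end row among the deposited exon rows. Its last row was tied to an inner 79-base exon and averaged 25.95 ± 7.77, and its largest row was row 23, the exon before splice site 4, at 382 ± 80.8. The Nrxn2 rows summed to 99.94% of its gene value, so reads past its last row are not in that value. Among the neurexin alpha rows, the 120-base exons averaged 35.1 to 49.5 and the 382-base exons 279 to 302.

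**Figure D3:**
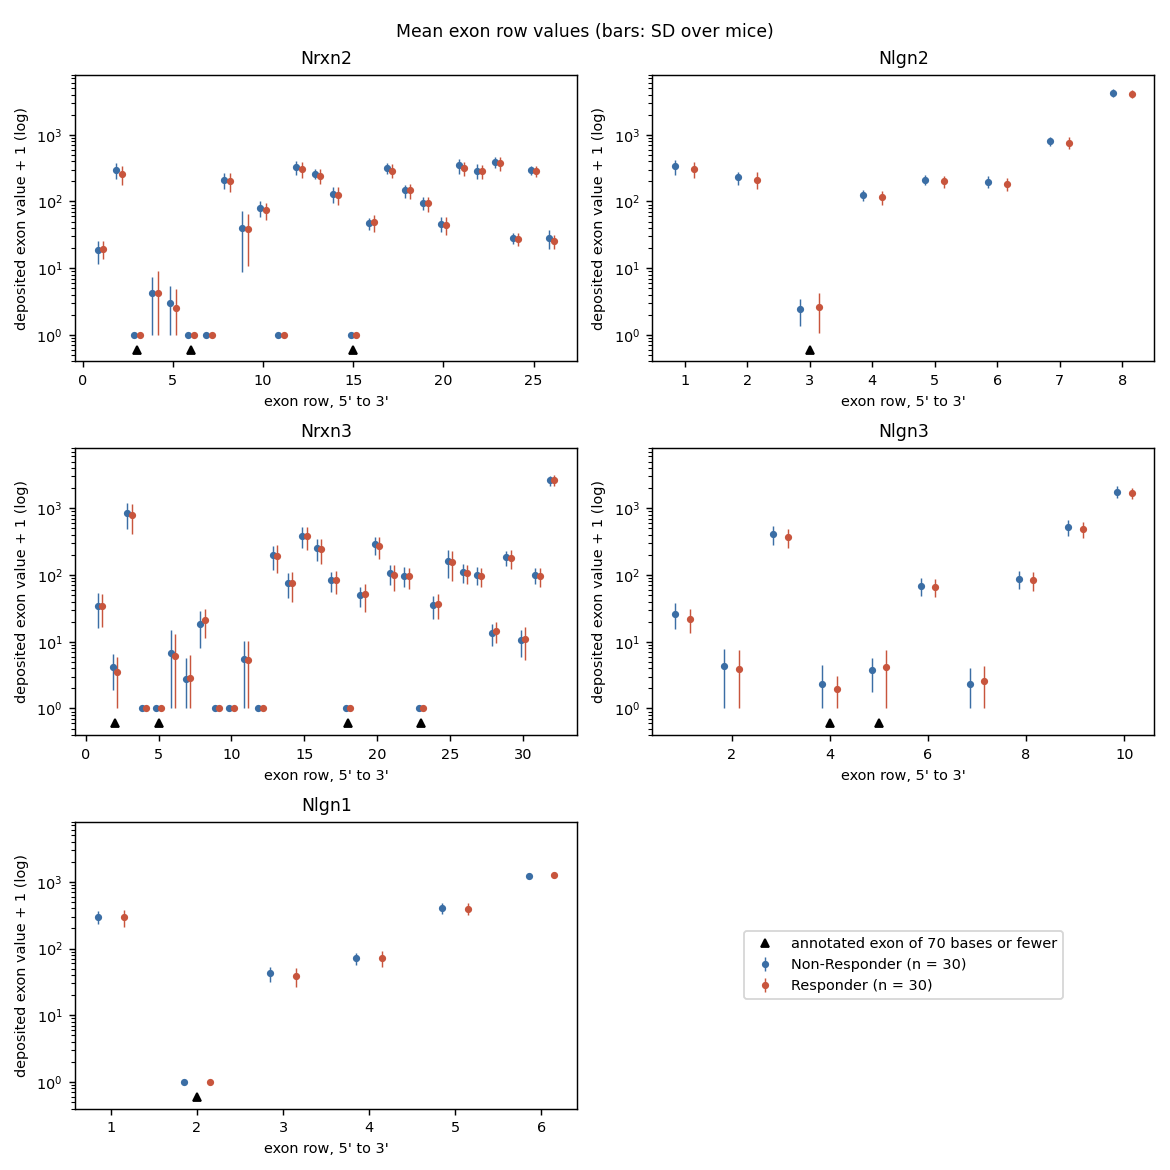
Mean deposited exon value plus 1 (y, log axis) of each exon row from 5' to 3' (x) in Non-Responder (blue) and Responder (red) mice, n = 30 each, with SD bars, for the 5 genes; triangles mark rows tied to exons of at most 70 bases. The SD bars of the phenotypes overlap in every row, and the 3' end rows of Nrxn3 and Nlgn2 reach 2648 and 4170.

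The splice site 4 exons were read at low but nonzero values. Nrxn2 row 24 ranged from 14 to 40 over the mice (median 27), and Nrxn3 row 28 (m37 start 91437587) from 2 to 22 (median 13). Per base they stood at 42.7% and 27.4% of their gene's median over rows of 150 bases or more. The length class of 80 to 90 bases had, over the whole table, a median of 27.6%, so these levels cannot be read as inclusion rates. As a share of the exon and its flanking coding rows (23 and 25 in Nrxn2, 27 and 29 in Nrxn3), splice site 4 was 3.95% ± 0.891 in Nrxn2 and 4.59% ± 1.51 in Nrxn3 (SD, n = 60). By phenotype these shares were 4.27% ± 1.29 in Non-Responder and 4.91% ± 1.66 in Responder mice for Nrxn3, and 3.89% ± 0.782 and 4.02% ± 0.998 for Nrxn2. On the log2 scale the ratio differed by 0.17 (95% interval -0.11 to 0.45) and 0.02 (-0.16 to 0.20), each interval reaching across 0. By sex the Nrxn2 ratio was lower in males by -0.19 (-0.37 to -0.01), 4.19% ± 0.741 in females against 3.75% ± 0.971 in males. It was the only 1 of 9 such readings whose interval by sex left out 0, and the row itself had an adjusted p of 1.00 in limma's diffSplice test (unadjusted 0.193).

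Internal first exons carried reads in Nrxn2 and Nrxn3. Nrxn3 row 25 (m37 start 91050923), a 1158-base coding first exon of 2 annotated transcripts at the beta position, ranged from 22 to 343 (median 145), and Nrxn2 row 21 (m37 start 6497671), a 215-base first exon of a noncoding transcript at the corresponding place, from 150 to 503 (median 321). Per 100 bases, Nrxn2 row 22, the 182-base exon after the internal start, stood at 158, and row 19, a 174-base exon before it, at 54.1. Further downstream row 25, of 326 bases, stood at 89.1, beside 79.1 for the 382-base row 17 upstream. In Nrxn3 the rows matching 22 and 19 of Nrxn2, rows 26 and 22, stood at 59.4 and 55.1. Against 11 alpha-only coding rows in each gene, the internal first exon took 16.4% ± 2.88 in Nrxn2 and 6.43% ± 1.61 in Nrxn3. These shares were 16.4% ± 2.74 and 16.3% ± 3.05 in Non-Responder and Responder mice for Nrxn2, and 6.36% ± 1.57 and 6.51% ± 1.67 for Nrxn3. The log2 ratios differed by 0.00 (95% interval -0.16 to 0.15) and 0.03 (-0.19 to 0.25).

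No difference in exon usage with catalepsy phenotype was called in any of the 57 member rows that averaged at least 10. In limma's diffSplice test of each row against the other rows of its gene, 0 of 57 passed an adjusted p of 0.05, while 88 of 66690 rows of the table were called (0.132%). Unadjusted, 0 of 57 were below 0.05. Only 2.50% of all rows were below 0.05 unadjusted in this test, so 0 of 57 does not set the member rows apart. The smallest p was 0.0989 for Nrxn2 row 1, a noncoding first exon that averaged 17.4 ± 6.91 in Non-Responder and 18.7 ± 6.13 in Responder mice (log2 difference 0.21, SE 0.13). Nrxn2 row 2, the first coding exon of the alpha form, followed at 296 ± 77.5 and 257 ± 81.9 (-0.17, SE 0.13). Then came Nrxn3 row 8 at 17.7 ± 10.6 and 20.1 ± 9.75 (0.25, SE 0.19) and Nlgn3 row 1 at 25.5 ± 11.2 and 20.97 ± 8.51 (-0.18, SE 0.14), both without coding sequence. This test gives all rows of a gene 1 standard error, pooled over its rows, so a second fit on the log2 share of each row in its gene was set beside it. It called 0 of 57 rows as well, with Nrxn2 row 1 (0.22, 95% interval 0.02 to 0.43, adjusted p = 0.977 in limma) and Nrxn2 row 2 (-0.14, -0.28 to -0.00, adjusted p = 1.00) below an unadjusted p of 0.05, against 4.81% of all rows. The intervals of 55 of the 57 rows stayed within 0.5 in either direction, the exceptions being Nrxn2 row 9 (-0.42 to 0.53) and Nrxn3 row 8 (-0.12 to 0.52).

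**Figure D4:**
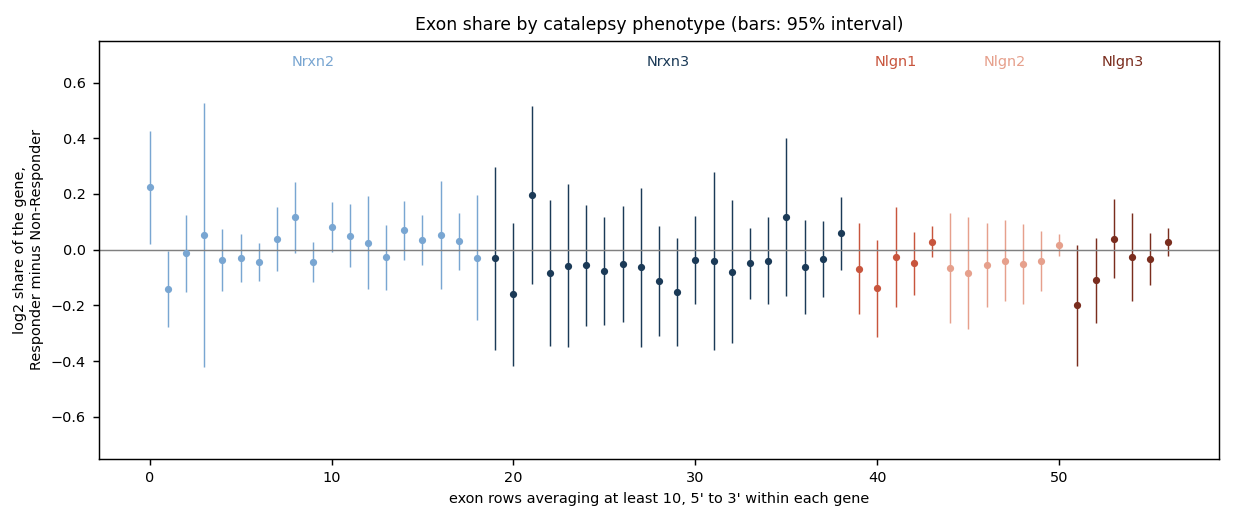
Responder minus Non-Responder difference in the log2 share of each of 57 exon rows in its gene (y, with 95% intervals from limma), in order from 5' to 3' within each gene (x). The intervals of 55 rows lie within 0.5 of 0, and none passes the adjusted threshold.

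By sex, 0 of the 57 rows were called by diffSplice, against 6 of 66690 rows called (0.009%). Below 0.05 unadjusted were 0 of the 57, against 1.43% of all rows. The smallest p was 0.168 for Nrxn2 row 26 (log2 difference 0.18, SE 0.13). The phenotype by sex interaction also gave 0 of 57, with 7 of 66690 rows called (0.0105%) and 1.31% of all rows below 0.05 unadjusted.

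Exon usage varied between mice with the 3' bias of the library. Over the 44 member rows averaging at least 50, the share of a row in its gene had a coefficient of variation of 5.75% to 32.5% (median 15.8%), and its variance was 1.29 to 138 times that of counting noise (median 4.59). For the share of the last row of Nrxn3 against 3' bias, Pearson's r was 0.955 in the 17 shallower mice and 0.591 in the 39 deeper mice without the 4 of strongest bias (Spearman's rho 0.593, permutation p = 9e-05, adjusted over 5 relations 0.00015), and 0.516 without the 2 mice farthest in bias. For Nlgn2 these were 0.576 and 0.724 (rho 0.792, adjusted permutation p = 5e-05), for Nlgn3 0.668 and 0.559 (rho 0.604), and for Nlgn1 0.543 and 0.513 (rho 0.511). In the shallower mice Spearman's rho was 0.926 for Nrxn3, 0.544 for Nlgn3, 0.289 for Nlgn2 and 0.211 for Nlgn1, and 1 mouse, 26, lay apart there at a bias of -0.01, the others reaching from -0.32 to -0.17. In mouse 63 the last row held 88.9% of Nrxn3, 88.9% of Nlgn2, 85.4% of Nlgn1 and 84.6% of Nlgn3.

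**Figure D5:**
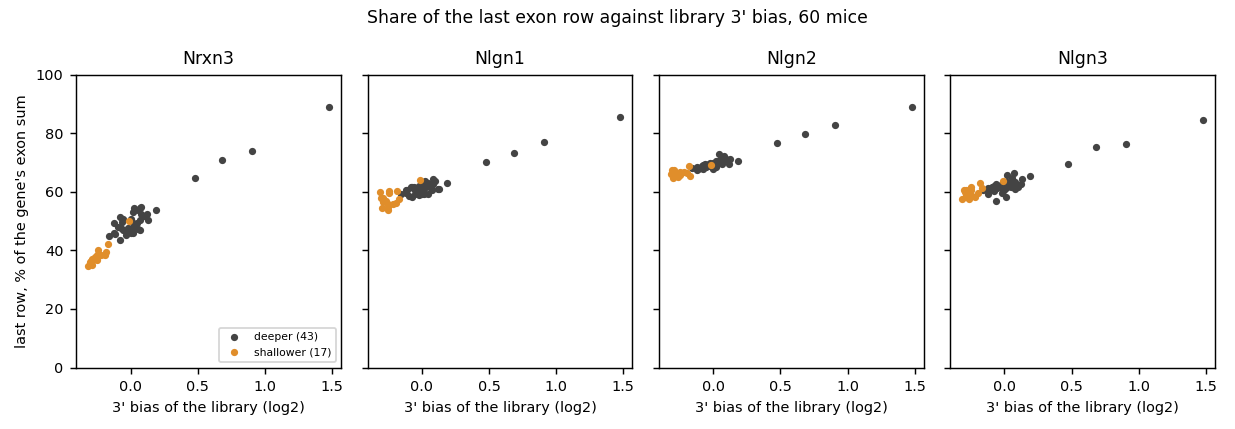
Share of the last exon row in its gene's exon sum (y, percent) against the library's 3' bias (x, log2) for 4 genes, each point 1 mouse, coloured by depth range (43 deeper, 17 shallower). The share climbs with the bias in each gene, up to 84.6% to 88.9% in mouse 63.

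Some member rows took a larger share of their gene in the 17 shallower mice. Of the 69 member rows averaging at least 1, 11 had a share at least 2 times as high there as in the deeper mice: 4 rows each of Nrxn3 and Nlgn3 and 3 of Nrxn2. The matching count over all exon rows of the table was not taken, so this is not shown to be particular to these genes. Nrxn2 row 9, a 24-base coding exon that 1 annotated transcript extends to 2927 bases, was 22.95 ± 9.58 (2 to 47) in the deeper and 76.9 ± 26.7 (43 to 137) in the shallower mice. Nrxn3 row 6, a 30-base exon with an annotated extension to 571 bases, was 1.53 ± 1.24 (0 to 5) and 15.3 ± 8.34 (3 to 31). Nrxn3 row 25, the internal first exon, was also higher in the shallower mice, 244 ± 65.8 against 127 ± 44.6, and row 3 of the same gene stood at 1246 ± 272 against 650 ± 241, while row 32 was alike (2647 ± 431 and 2648 ± 468). The catalepsy groups held 9 and 8 of the shallower mice, and what set these libraries apart was not tested.

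Levels of most pairs of the 5 genes moved together over mice, and so did levels and several cell type marker sums. In the 39 deeper mice without strong 3' bias, Pearson's r of log2 gene values was highest for Nrxn3 and Nlgn3 (0.864, rho 0.837), then Nrxn3 and Nlgn2 (0.799, rho 0.720) and Nlgn2 and Nlgn3 (0.773, rho 0.785), each with a permutation p of 1e-05, the smallest that 100000 permutations can give (adjusted over 10 pairs 1.67e-05). Without the 2 mice farthest from the median of the gene named first they were 0.846, 0.759 and 0.749. In the 17 shallower mice they were 0.886, 0.749 and 0.756. Of the 10 pairs, 8 passed after adjustment by both coefficients. Nlgn1 with Nrxn2 did not (r 0.276, rho 0.215, adjusted permutation p = 0.0903 and 0.187), and Nlgn1 with Nlgn2 passed by r alone (0.365, adjusted permutation p = 0.025; rho 0.310, 0.0618). The summed value of 7 oligodendrocyte markers (Mbp and Mag among them) ran the other way for all 5 genes, with r from -0.797 for Nrxn2 (rho -0.759, permutation p = 1e-05, adjusted over 40 relations 5.71e-05 for r) to -0.487 for Nlgn1 (rho -0.384, adjusted permutation p = 0.00338 for r and 0.0275 for rho); without the 2 mice farthest in the marker sum they were -0.777 and -0.432. With 3 cortical excitatory markers (Tbr1 and Cux2 among them) r was 0.777 for Nrxn2 (rho 0.789, adjusted permutation p = 5.71e-05 for r), 0.615 for Nlgn2 (rho 0.664, adjusted permutation p = 0.000145 for r), 0.417 for Nlgn3 and 0.410 for Nrxn3, and 0.222 for Nlgn1, which did not pass (adjusted permutation p = 0.2). Sums of 4 interneuron markers (Sst and Npy among them) moved with the same 4 genes, r being highest for Nlgn2 (0.749, rho 0.711) and 0.342 for Nlgn1 (adjusted permutation p = 0.0526). Astrocyte and microglia sums ran against those 4 genes, r reaching -0.662 for Nlgn2 (rho -0.669) and -0.617 for Nlgn3 (rho -0.573). For medium spiny neuron markers r passed for 3 genes, highest for Nlgn1 (0.539, rho 0.564). Summed values of the oligodendrocyte markers ran from 67493 to 192464 in Non-Responder and from 70107 to 205740 in Responder mice, and of the cortical markers from 1621 to 6846 and from 2169 to 6481. The share of all genes that pass the same relations is not given here, so none of them is shown to be particular to these 5 genes. In such bulk tissue fewer cells of a type and less RNA per cell cannot be told apart, and the part of tissue composition in these levels was not tested.

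Over all 60 mice the gene values of 4 members fell with 3' bias. Pearson's r was -0.822 for Nrxn2 (rho -0.606, permutation p = 1e-05, adjusted over 10 relations 2.5e-05 for r) and -0.729 for Nlgn3 (rho -0.740, the same p), and -0.697 and -0.751 without the 2 farthest mice. For Nlgn2 it was -0.156 (rho 0.00367, adjusted permutation p = 0.24). The Nrxn2 value holds no 3' end row, and the part of this gap in its relation to 3' bias was not tested. In the 43 deeper mice r was -0.827 for Nrxn2, -0.653 for Nlgn3, -0.623 for Nlgn1 and -0.606 for Nrxn3. Without the 4 mice of strongest bias, in the other 39 deeper mice, these became -0.387, -0.369, -0.131 and -0.0980, and none passed after adjustment (smallest adjusted permutation p = 0.0759). In the 17 shallower mice they were -0.388, -0.385, 0.0465 and -0.281. Nlgn3 was higher in the shallower mice (3563 ± 495, against 2540 ± 442 in the deeper mice). Within the deeper and the shallower range its r with log2 reads was 0.244 and 0.278. Nrxn3 (5284 ± 1252 and 6943 ± 1197), Nrxn2 (3103 ± 661 and 3774 ± 548) and Nlgn1 (2018 ± 261 and 2167 ± 209) were also higher in the shallower mice. Nlgn2 was not (6061 ± 916 and 5892 ± 700). Mouse 26, numbered apart from the other shallower mice (41 to 56), was the lowest of the 17 for Nlgn3 (2637.5), Nrxn3 (4782) and Nrxn2 (2680). For Nlgn1 the lowest of the 17 was mouse 42. The part of depth itself in these differences was not tested. Over all 60 mice r with log2 reads was -0.533 for Nlgn3 and -0.371 for Nrxn3 (adjusted permutation p = 6e-05 and 0.00563).

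The genes most like each member were named by Spearman's rho over the 60 mice, among 8534 genes, as a description. Cnot1 (0.948), Chd8, Igf2r and Chd6 were among the 5 most like Nrxn3. The 5 were Adgrl3 (0.940), Rprd2, Tenm4, Sec16a and Mest for Nlgn3, and Atp6v0a1 (0.933), Med15, Ap2a1, Atg9a and Dnm1 for Nlgn2. For Nrxn2 they were Celsr2 (0.891), Ptprs, Snrk, Map1b and Arhgef11, and for Nlgn1 Atp2b1 (0.857), Gsk3b, Zmym2, Robo2 and Mgea5. Adgrl3 (a latrophilin) and Tenm4 (a teneurin) are themselves trans-synaptic adhesion proteins, and Ptprs is a receptor phosphatase that also organises presynaptic terminals. Nrxn3 had 300 genes above a rho of 0.8 and Nlgn1 had 6. In 42 deeper mice without mouse 63 the likeness held in size (0.933 for Cnot1 with Nrxn3) but the order moved, with Chd6 ranking first for Nrxn3 and Tenm4 65th for Nlgn3.

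The wider machinery of these synapses did not pass the tests either. Among 103 tested genes of 5 lists, 0 were called in either direction by phenotype and 0 by sex in limma, 3 and 4 being below an unadjusted p of 0.05, a level that 6.49% and 2.04% of all genes reached. By phenotype, the median log2 difference was -0.05 over 17 partners across the synapse, -0.03 over 18 presynaptic scaffolds, -0.03 over 19 postsynaptic scaffolds, -0.05 over 29 other synaptic organisers and 0.02 over 20 splicing regulators linked to neurexin exons, beside -0.003 over all genes. The smallest p belonged to Cask, the scaffold kinase that binds the neurexin tail, at 2397 ± 311 in Non-Responder and 2139 ± 271 in Responder mice (log2 difference -0.16, SE 0.05, adjusted p = 0.212 in limma). Mbnl1, a splicing regulator, was 2693 ± 277 and 2925 ± 322 (0.11, SE 0.04, adjusted p = 0.363), and C1ql1, a secreted synaptic organiser, was 165 ± 37.6 and 145 ± 31.5 (-0.18, SE 0.08, adjusted p = 0.673). By sex the 3 of smallest p were Tra2a, a splicing regulator (log2 male minus female difference -0.18, SE 0.07), Homer1, a postsynaptic scaffold (-0.20, SE 0.08), and Elavl2, an RNA-binding protein (-0.13, SE 0.06), each with an adjusted p of 1.00.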

How the data were processed

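PolyA RNA-Seq of striatum was analysed for 60 mice, grouped by the catalepsy and sex given in the labels. The authors aligned reads with Bowtie 0.12.7 to NCBI m37, summarized them over Ensembl 59 union exons and scaled them by edgeR 3.4.2 upper quartile factors. The deposited gene table is a scaled count signal, from which whole reads were recovered (100% of values within 0.1), and the deposited exon table is a scaled score, rounded to whole numbers by the authors. The deposited gene table holds 9066 genes, the same number that the study kept for its networks. The study had removed genes averaging under 500 counts and genes whose exons were all weakly connected. On the deposited scale 5198 of the 9066 genes average at least 500, and how the study's cut was computed is not known here. Shares of all genes given here are therefore over a set that may already have been selected. Genes were tested with limma 3.58.1 (R 4.3.3) on log2(value + 1) over rows averaging at least 10, and exon rows with limma's diffSplice, with phenotype and sex in the model and Benjamini-Hochberg adjustment over the whole table. Alternatives used edgeR 4.0.16, DESeq2 1.42.0, other filters, a pseudocount of 5, technical covariates and fewer mice. The scripts were tested on made-up data with known changes of 0.5 on the log2 scale. For genes, limma recovered 200 of 200 with 8 false calls. For exon rows, diffSplice recovered 189 of 195 with 60 false calls, 35 of them in genes without a changed row. The log2 share fit recovered 187 with 137 false calls, 12 of them in such genes. Counts of exon rows called over the table may therefore hold more false calls than the threshold states. The made-up values were drawn independently for each row, with 1 dispersion for all rows and without 3' bias. Changed exon rows averaged at least 50. Recovery in the made-up data is therefore no measure of power for the 57 member rows, whose diffSplice intervals by phenotype reached up to 0.385 to either side. An alternative with precision weights and one without the 4 mice of strongest 3' bias were added after seeing the data. Correlations used 100000 permutations. Symbols matched 8858 of 9066 genes. All rows of the 5 genes were analysed; some genes and sequences are not reported here. Exon rows were named for a small p, an extreme share or value, a short length or their position in the gene. Others were named for a share that differed between the depth ranges or a sign that changed between fits. Not every member has its rows of smallest p named. Named pathway genes are the 3 of smallest p in each comparison. The members, gene lists and rules were chosen with earlier results of these data known. With 1 library per mouse, p-values other than those of diffSplice measure the spread between mice. diffSplice pools its standard error over the rows of a gene, so rows of the same mouse enter as if independent.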

Additional observations from a re-analysis of the deposited data

How the results depend on the processing

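None of the 5 genes and none of the 57 tested exon rows was called under any alternative, by phenotype or by sex, at most 3 rows and 0 genes being below an unadjusted p of 0.05 in any fit with limma, edgeR or DESeq2, and the 5 last-row shares moved by less than 1 SD without mouse 63 or without the 17 mice of fewest reads. Of 10 relations of gene level to depth and 3' bias, 6 passed over all mice, 7 without mouse 63 and 5 within the deeper range. Small differences that were never called changed sign, and the cause was not tested. By phenotype, with 3' bias and depth as covariates the log2 differences were 0.0157 for Nlgn1, 0.0162 for Nrxn3, 0.005 for Nlgn2 row 1 and -0.0073 for Nrxn2 row 24. Without mouse 63 they were 0.0118 for Nlgn1, 0.0069 for Nlgn2 row 1 and -0.0085 for Nrxn2 row 24. Without the 4 mice of strongest 3' bias it was 0.0011 for Nlgn1. Without the 17 mice of fewest reads they were 0.0006 for Nlgn1 and -0.0294 for Nlgn1 row 4, which was -0.0273 on the log2 share. By sex, without the 17 mice they were 0.0438 for Nlgn1, 0.0326 for Nrxn2, -0.005 for Nrxn3 row 25 and -0.0481 for Nrxn3 row 8. With the covariates they were -0.0093 for Nlgn2, -0.0129 for Nlgn1 row 4 and -0.0163 for Nlgn1 row 5. With no filter they were -0.0444 for Nlgn3 row 3, -0.0551 for Nlgn3 row 8 and -0.0135 for Nrxn3 row 25. Nrxn3 row 28 was 0.0167 on the log2 share, 0.0154 without mouse 63 and 0.0346 without the 4 mice, and Nlgn1 was 0.0027 in DESeq2 and 0.0008 in edgeR.

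Over all genes, the calls by phenotype went from 9 to 84 with the covariates, to 23 in DESeq2, to 3 without the 17 mice and to 5 at a mean of at least 500, and those by sex from 3 to 5 with the covariates and 0 without the 17 mice (153 below an unadjusted p of 0.05 in limma). Over all exon rows, the calls by phenotype went from 88 to 210 with the covariates, 350 with no filter, 137 without the 4 mice, 53 with precision weights, 19 at a mean of at least 50 and 14 on the log2 share. Those by sex went from 6 to 73, 201, 8, 4, 2 and 0 in that order, and to 2 without the 17 mice (1760 rows were below an unadjusted p of 0.05 in limma on the log2 share). Exons of at most 70 bases could not be measured, and rows averaging near 10 carried too few reads for small shifts. No paired analysis was possible because each mouse is a sample of its own and the groups share no replicate numbers in the labels.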
